A study of Homo sapiens with 10 samples.

Results

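The nuclear pore complex genes described here are the genes of the deposited table whose symbol is NUP followed by a number, with or without a closing L, together with NUPL1, NUPL2, POM121, TPR, AAAS, RAE1, SEH1L, SEC13 and NDC1. The rule took 29 of the 26040 gene symbols and used no measured value. Of these 29, 28 passed the filter on low values. NUP210L, a relative of the membrane protein NUP210, did not, with 0 to 7.73 scaled fragments in each library, and it enters no test. RANBP2 and AHCTF1, which also encode pore proteins, fall outside the rule on symbols and are given with the related genes further on.

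The samples were 10 poly(A) RNA libraries from the human osteosarcoma cell line U2OS. All cells carried a lentiviral shRNA and were kept in puromycin at 1 µg/ml. The untreated control group was 1 library with a negative control shRNA, and the treated control group was 3 libraries of that line after 10 µM nutlin-3a for 24 h. The shARVCF lines each carried 1 of 3 shRNAs targeting ARVCF, which encodes a p120-type catenin of cell junctions, with 1 untreated library and 1 library after the same nutlin-3a treatment per line. Nutlin-3a blocks the binding of MDM2 to p53 and so activates p53, and the design asks how the p53 response changes with ARVCF knockdown. Each shRNA line was grown from a single clone per the labels, so a shARVCF line is 1 shRNA and 1 clone, and every control library comes from 1 line. Nothing in the labels says that the control nutlin-3a libraries came from separate cultures, and p-values measure only the spread among these libraries, which may be technical.

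Nuclear pore complexes are the channels in the nuclear envelope through which proteins and RNA pass between nucleus and cytoplasm. Membrane proteins anchor each pore, an outer ring (the Y complex) and an inner ring form its scaffold, and proteins rich in phenylalanine-glycine repeats fill the channel. Filaments face the cytoplasm and a basket faces the nucleoplasm, where mRNA and transport receptors dock. The envelope and its pores come apart and are rebuilt at each mitosis of human cells, and cells that prepare to divide also insert new pores in interphase.

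Promoter sequences of 3 genes are shown because these genes had the smallest adjusted p in the shARVCF lines among members whose printable window held a searched motif. They come from RefSeq on GRCh38.p14 and hold only bases before the annotated start that no annotated exon of the gene covers, written 5′ to 3′ along the gene. Capitals mark the motif matches. The NUP50 window is chr22:45163675-45163840 on the plus strand, the NUP205 window is chr7:135557667-135557916 on the plus strand and the NUP153 window is chr6:17706926-17707175 on the minus strand.
NUP50: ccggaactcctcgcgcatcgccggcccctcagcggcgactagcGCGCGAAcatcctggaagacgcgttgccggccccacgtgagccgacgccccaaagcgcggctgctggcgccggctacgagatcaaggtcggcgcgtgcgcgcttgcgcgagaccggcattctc
NUP205: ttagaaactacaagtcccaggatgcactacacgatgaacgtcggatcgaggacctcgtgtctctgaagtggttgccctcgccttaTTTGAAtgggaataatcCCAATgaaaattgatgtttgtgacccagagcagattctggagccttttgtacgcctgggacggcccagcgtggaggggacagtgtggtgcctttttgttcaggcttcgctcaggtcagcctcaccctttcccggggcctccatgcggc
NUP153: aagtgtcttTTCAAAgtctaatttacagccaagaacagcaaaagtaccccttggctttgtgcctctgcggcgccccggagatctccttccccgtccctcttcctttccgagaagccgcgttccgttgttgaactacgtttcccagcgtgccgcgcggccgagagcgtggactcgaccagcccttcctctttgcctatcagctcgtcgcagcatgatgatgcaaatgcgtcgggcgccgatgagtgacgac

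Windows of 250 bases before to 50 bases after the start were searched on both strands, and 28 of the 29 members matched an entry. The cell-cycle homology region, read as TTTGAA, was found in 6 members (21.4%), against 15.4% of all 27305 promoters and 10.1% of those of 11065 tested genes. These members were NDC1, NUP153, NUP205, NUP35, NUP37 and NUP98. An E2F-type motif was read as TTCCCGC, and the forms TTGGCGC and also TTCGCGC counted as well. It was found in 11 members (39.3%), against 11.2% of all promoters and 17.3% of tested genes. CCAAT was found in 12 members (42.9%), against 35.7% of all promoters and 35.8% of tested genes. In NUP50 the match is GCGCGAA, the reverse complement of TTCGCGC, and in NUP153 it is TTCAAA, the reverse complement of TTTGAA. NUP205 holds both TTTGAA and CCAAT. A match describes letters in this window and is neither a binding site nor a cause.

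Library totals lay between 17821751 and 19903778 scaled fragments, the authors' estimated fragments after a scaling factor per library. ARVCF was at 618 in the untreated control library against 292 to 343 in the untreated shARVCF lines, and at 2376 to 2928 against 1188 to 1284 with nutlin-3a. MDM2 and CDKN1A, targets of p53, were higher with nutlin-3a in both kinds of line (MDM2 by 3.25 ± 0.13 on the log2 scale in the shARVCF lines and by 2.22 ± 0.19 in the control line, SE), so these libraries match their labels. Of 8 osteoblast lineage markers 5 passed the filter. SPARC was at 30630 or more in every library and COL1A1 at 41170 or more, but COL1A2 was at 1.83 to 15.5 and BGLAP, SP7 and IBSP were at or near 0, while CD3E, a marker of T cells, was near 0. Markers of other lineages were not all absent. The 3 endothelial and 3 epithelial markers looked at passed the filter, with CDH5 at 5.15 to 32.4 and CDH1 at 2.31 to 34.7. CDH1 was not called with nutlin-3a in either kind of line. The other epithelial markers were called lower in both, with log2 changes down to -2.30 in the shARVCF lines and -4.15 in the control line. Of the 3 endothelial markers 1 was called lower in the shARVCF lines and 0 in the control line. In whole cultures, fewer cells of a type and less RNA per cell cannot be told apart.

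In untreated cells the members summed to 0.294% of the library in the control line and to 0.301%, 0.291% and 0.306% in shARVCF lines 1 to 3. With nutlin-3a they summed to 0.124%, 0.126% and 0.124% in the 3 control libraries and to 0.178%, 0.173% and 0.176% in the shARVCF lines. Treated and untreated libraries did not overlap, and under nutlin-3a every shARVCF line lay above every control library. The sums are of fragments with no correction for transcript length. With the length and GC trend removed, as described further on, the members' median log2 difference between the lines under nutlin-3a was -0.05. Per kilobase of the longest annotated transcript, SEC13 was the most abundant member in the untreated shARVCF lines (1451 scaled fragments per kb), followed by NUP62 (879) and NUP85 (819). NUPL2 (118 per kb) and NUP37 (128 per kb) were the least abundant of the 28 tested members.

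**Figure D1:**
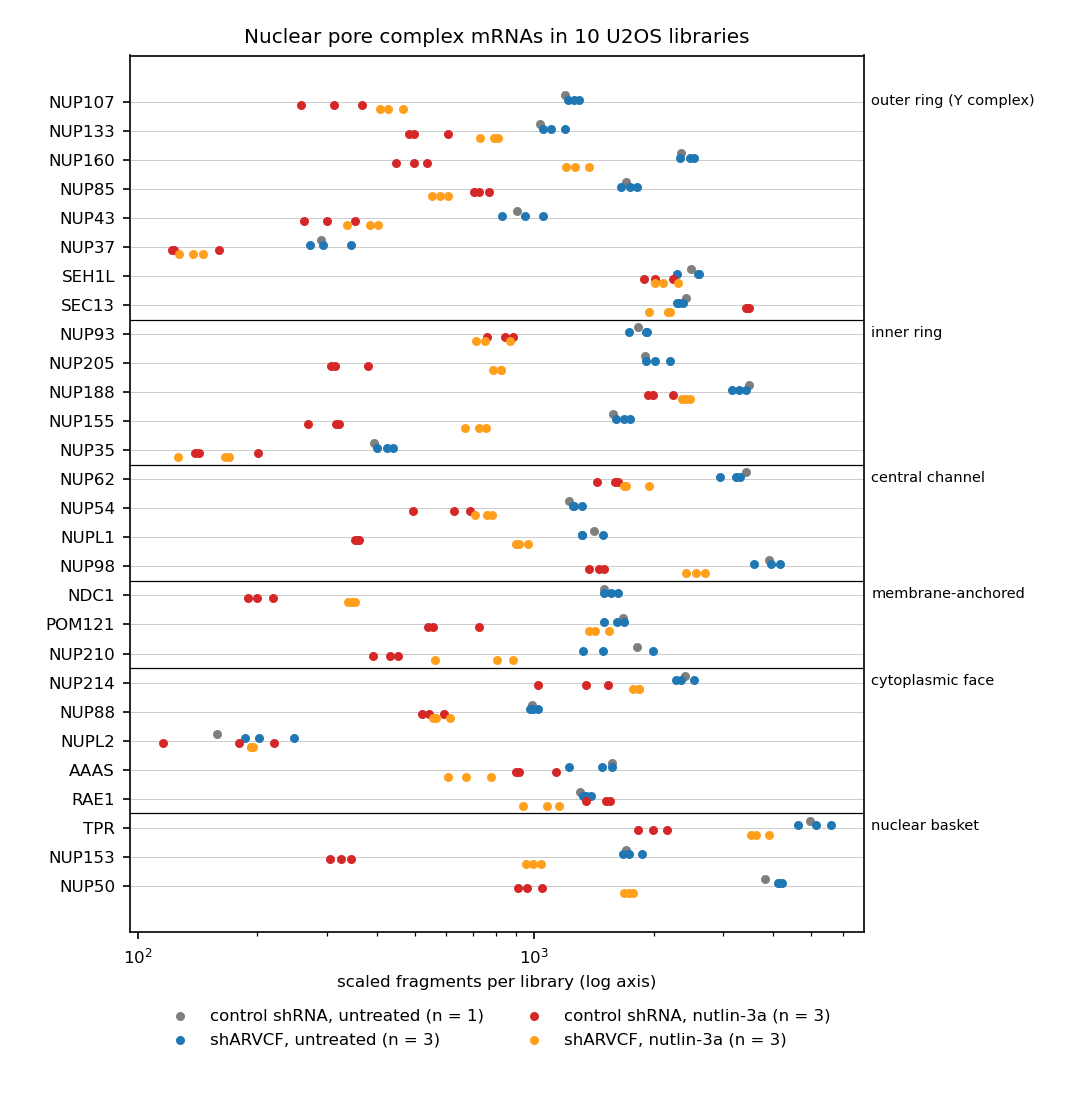
Scaled fragments of the 28 tested members in each of the 10 libraries (horizontal log axis), 1 point per library, ordered by role in the pore. Grey and blue are untreated control and shARVCF libraries, red and orange the same with nutlin-3a. For NDC1 the treated points lie at 189 to 354 and the untreated points at 1496 or more, while for SEC13 the treated control points, at 3412 to 3479, lie above all others.

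The drug response in the shARVCF lines was tested with 3 libraries a side. All 28 tested members had lower means with nutlin-3a, and 24 of them fell at an adjusted p under 0.05 (limma, Benjamini-Hochberg over 14955 genes), against 21.7% of all tested genes called lower, 21% called higher and 42.8% called in either direction. The members' median log2 change was -0.83, against -0.002 over all tested genes. For 25 members every treated library lay below every untreated one, against 28.4% of all tested genes. The 4 members not called were NUPL2, POM121, SEC13 and SEH1L.

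In the control line 24 members fell and 1 (SEC13) rose, against 32% of tested genes called lower, 25.1% called higher and 57.1% called in either direction. The median of the 28 log2 changes was -1.26, against -0.10 over all tested genes. Here 25 members lay below the 1 untreated library in all 3 treated libraries (46.1% of all tested genes did) and 2, SEC13 and RAE1, lay above it (39.9%). The spread of that group was taken to be that of the remaining groups, since 1 library shows none. In both kinds of line 23 of the 28 members were called lower, while RAE1 was called lower in the shARVCF lines alone and POM121 in the control line alone. The share of all tested genes called lower in both was not computed. It can be at most the 21.7% called lower in the shARVCF lines.

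Genes of cell division moved with this. All 16 tested proliferation genes, among them MCM5, a subunit of the replicative helicase, and CCNA2, a cyclin, were called lower in both kinds of line, with median log2 changes of -4.47 in the shARVCF lines and -4.92 in the control line. Their part in the fall of the pore genes was not tested.

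The fall was seen in every line. The median log2 change of the 28 members from the untreated to the treated library was -0.87, -0.81 and -0.81 in shARVCF lines 1 to 3, with 28, 27 and 28 members lower. Against the lone untreated control library it was -1.30, -1.26 and -1.25 in the 3 treated control libraries, with 25, 26 and 25 members lower.

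**Figure D2:**
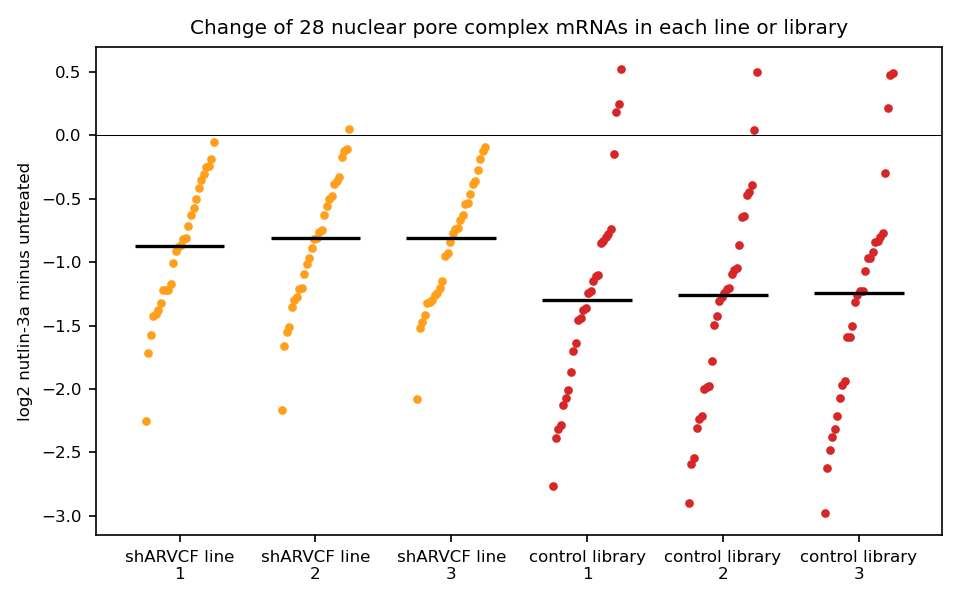
Log2 change with nutlin-3a of each of the 28 tested members (points, sorted within a column) in the 3 shARVCF lines, each against its own untreated library, and in the 3 control libraries, all against the same untreated library. Black bars are medians, from -0.87 to -0.81 in the shARVCF lines and from -1.30 to -1.25 in the control libraries.

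Among the membrane proteins, NDC1, which anchors the pore scaffold, had the largest fall of all members in both kinds of line. It was at 1623, 1559 and 1498 scaled fragments in untreated shARVCF lines 1 to 3 and at 339.6, 346 and 354 after nutlin-3a. The control line went from 1496 to 219.6, 199.6 and 189. Treated and untreated libraries were far apart in both, and the treated control libraries were the lowest of all. The log2 change was -2.17 ± 0.10 (SE) in the shARVCF lines (adjusted p = 5.88e-09), a 4.49-fold fall, and -2.88 ± 0.14 in the control line (adjusted p = 1.75e-08), a 7.36-fold fall. With a correction for transcript length and GC content, described further on, the changes of NDC1 were -2.00 and -1.96. The difference between the lines under nutlin-3a was then -0.02 and not called.

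NUP210, a glycoprotein with a large lumenal domain, fell from 1989, 1493 and 1330 to 881, 806 and 562 in shARVCF lines 1 to 3 (-1.10 ± 0.18, adjusted p = 0.000378). The control line fell from 1816 to 431, 453 and 391 (-2.09 ± 0.25, adjusted p = 2.7e-05). The spread among shARVCF lines was wide, and line 3 was lowest with and without drug. POM121, which recruits scaffold proteins to the membrane, behaved otherwise. Its values were 1616, 1496 and 1685 in untreated and 1419, 1373 and 1547 in treated shARVCF lines, so the groups overlapped (-0.15 ± 0.12, adjusted p = 0.346). The control line went from 1675 to 539, 724 and 555, all under the values of the other libraries (-1.48 ± 0.17, adjusted p = 1.07e-05). POM121C, a near-identical copy, shares sequence with POM121, and the sources used here do not say how the authors' counting split reads between the pair, so both are uncertain. POM121C had log2 changes of 0.18 (adjusted p = 0.244) and -0.38 (adjusted p = 0.0735).

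In the outer ring, 6 of 8 members fell in the shARVCF lines (median log2 change -1.04) and 6 fell and 1 rose in the control line (median -1.16). Counts by role are to be read against the 21.7% and 32% of all tested genes called lower in the shARVCF and the control lines. After the correction for length and GC content 5 were called lower and 1 higher in the control line. NUP85, a scaffold subunit of the Y complex, was at 1814, 1657 and 1738 in untreated and 552, 579 and 607 in treated shARVCF lines. Control values were 1702 before and 767, 703 and 724 after the drug. All treated libraries lay below all untreated ones, and the shARVCF lines lay below the control libraries. The log2 changes were -1.58 ± 0.09 (adjusted p = 2.96e-08) and -1.22 ± 0.12 (adjusted p = 5.03e-06).

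NUP160, another Y complex scaffold subunit, showed the opposite order of the lines. It went from 2534, 2476 and 2327 to 1373, 1263 and 1205 in the shARVCF lines and from 2342 to 536, 496 and 449 in the control line. Under the drug all control libraries lay below all shARVCF lines. The changes were -0.93 ± 0.10 (adjusted p = 6.48e-06) and -2.25 ± 0.14 (adjusted p = 8.15e-08). NUP107, NUP133, NUP43 and NUP37, the other Y complex members called in both kinds of line, had log2 changes of -1.53, -0.52, -1.32 and -1.14 in the shARVCF lines and of -1.95, -0.98, -1.58 and -1.11 in the control line.

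SEC13 and SEH1L, small propeller proteins of the Y complex that also serve elsewhere in the cell (SEC13 in the COPII coat of secretory vesicles), did not follow the ring. SEC13 was at 2293, 2368 and 2318 in untreated and at 1942, 2197 and 2179 in treated shARVCF lines (-0.15 ± 0.08, adjusted p = 0.169). In the control line it was at 2420 before and at 3479, 3433 and 3412 after nutlin-3a, which made it the only member called higher (0.51 ± 0.11, adjusted p = 0.0022). That call is lost, with a log2 change of -0.03, after a correction for transcript length and GC content that is described further on. SEH1L was between 1889 and 2606 in all libraries, with changes of -0.22 (adjusted p = 0.0878) and -0.28 (adjusted p = 0.0975). Without control nutlin-3a replicate 1 the change of SEH1L in the control line was -0.35 (adjusted p = 0.0404). With the correction for length and GC content it was 0.45 instead, and called higher.

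All 5 inner ring members fell in both kinds of line, with medians of -1.26 and -1.31. After the correction for length and GC content 4 of them were called lower in the control line. NUP205, a large scaffold protein, was at 1910, 2012 and 2197 in untreated and 822, 787 and 822 in treated shARVCF lines, and at 1901 and then 380.5, 315 and 307 in the control line. The 3 treated control libraries were below the 3 treated shARVCF lines, and all 6 were below every untreated library. NUP205 changed by -1.33 ± 0.10 (adjusted p = 6.01e-07) and -2.51 ± 0.15 (adjusted p = 7.05e-08). NUP155, which links the ring to the membrane, changed by -1.23 ± 0.10 and -2.38 ± 0.14. Its treated values were 725, 666 and 756 in shARVCF lines 1 to 3, above the 322, 269 and 316 of the control libraries.

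NUP93, which holds the inner ring to the channel proteins, went from 1912, 1736 and 1924 to 711, 753 and 869 in the shARVCF lines and from 1821 to 844, 883 and 759 in the control line. Here the treated libraries of both kinds overlapped (-1.26 ± 0.10, adjusted p = 8.82e-07, and -1.14 ± 0.15, adjusted p = 3.2e-05). NUP35, which binds membranes, changed by -1.46 and -1.31. NUP188, a paralog of NUP205, had the smallest change of the ring in both, with -0.45 and -0.76.

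The 4 channel members also fell in both kinds of line, with medians of -0.69 and -1.29. NUPL1, the NUP58 protein that assembles with NUP62 and NUP54, was at 1490, 1319 and 1319 in untreated and at 963, 897 and 912 in treated shARVCF lines. The control line went from 1415 to 352, 359 and 360.0. The treated control values were tightly grouped and far below the treated shARVCF values. The changes were -0.57 ± 0.09 (adjusted p = 0.00025) and -1.98 ± 0.13 (adjusted p = 1.26e-07). NUP62, the abundant channel protein, changed by -0.83 and -1.14, NUP54 by -0.77 and -1.04, and NUP98, which also binds the mRNA export factor RAE1, by -0.61 and -1.44.

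At the cytoplasmic face 4 of 5 members fell in the shARVCF lines and 3 in the control line (medians -0.39 and -0.69). The 60% called in the control line is near the 57.1% of all tested genes called in either direction. After the correction for length and GC content 4 and 2 were called lower, against 20.7% and 21.1% of all genes. AAAS, the protein called ALADIN, fell by 1.06 and 0.69 on the log2 scale and NUP88, a partner of NUP214, by 0.79 and 0.84. NUP214, a filament protein, fell by 0.39 and 0.90, but its call in the shARVCF lines was lost without untreated shARVCF line 1 (adjusted p = 0.0506), without untreated line 3 (0.0734) and without treated line 2 (0.065). RAE1 was at 1326, 1348 and 1390 in untreated and at 936, 1075 and 1151 in treated shARVCF lines, with no overlap (-0.37 ± 0.10, adjusted p = 0.00962). In the control line RAE1 was at 1305 before and at 1551, 1348 and 1515 after the drug (0.17 ± 0.14, adjusted p = 0.314). NUPL2, an mRNA export adaptor of low abundance, was between 116 and 248 in all libraries and was called in neither.

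All 3 basket members fell in both kinds of line, with medians of -0.82 and -1.98. After the correction for length and GC content 2 of them were called lower in the control line. NUP153, which anchors the basket to the pore, was at 1734, 1675 and 1865 in untreated and at 952, 989.9 and 1041 in treated shARVCF lines. Control values were 1707 before and 325, 344 and 304 after nutlin-3a. The treated control libraries were thus the lowest by a wide margin. Its changes were -0.82 ± 0.09 (adjusted p = 1.46e-05) and -2.39 ± 0.13 (adjusted p = 3.95e-08), folds of 1.77 and 5.26.

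NUP50, a cofactor of importin-mediated transport, was at 4206, 4125 and 4154 in untreated and at 1685, 1778 and 1736 in treated shARVCF lines. It went from 3812 to 1044, 961 and 908 in the control line. With the deposited scaling the order of the groups was as for NUP153 (-1.26 ± 0.08, adjusted p = 1.14e-07, and -1.98 ± 0.12, adjusted p = 7.24e-08). The correction for length and GC content left NUP50 a line difference under nutlin-3a of 0.09, not called, against 0.82 for NUP153. TPR, the coiled-coil protein of the basket filaments, had values of 4634, 5125 and 5591 before and 3898, 3620 and 3514 after the drug in the shARVCF lines, and of 4969 and then 1830, 2160 and 1993 in the control line. Its changes were -0.47 ± 0.10 (adjusted p = 0.00186) and -1.32 ± 0.14 (adjusted p = 6.6e-06). With that correction they were -0.39 and -0.13, the last not called, and the line difference under nutlin-3a was -0.27, not called.

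**Figure D3:**
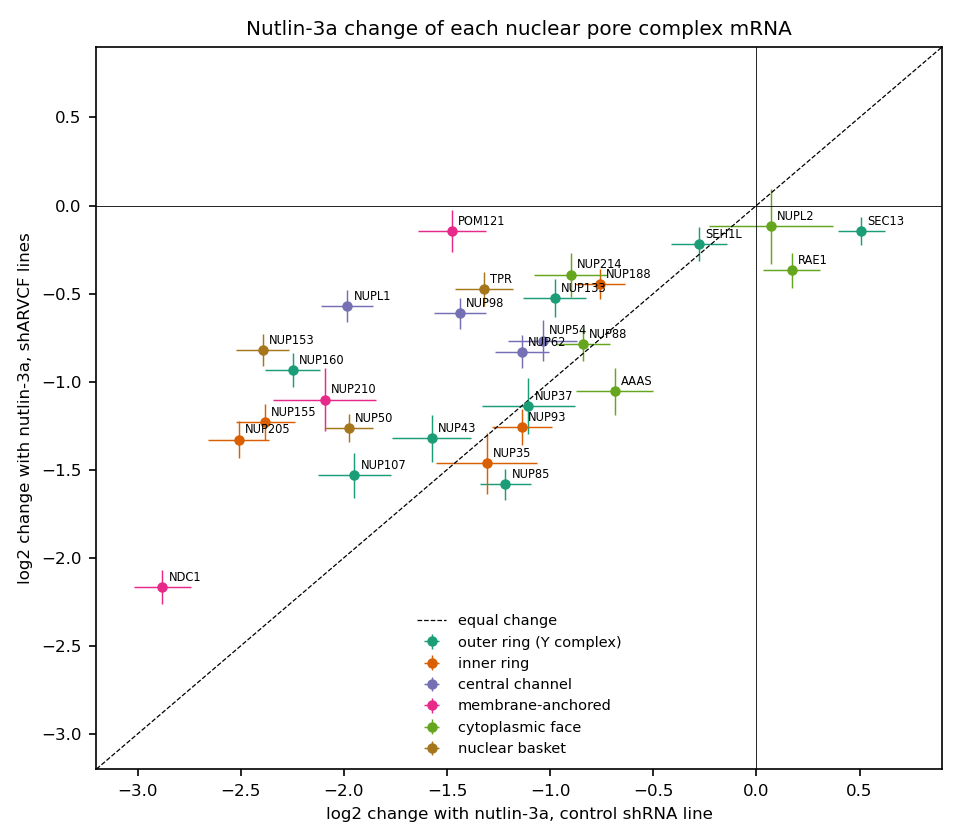
Log2 change with nutlin-3a of each tested member in the control line (horizontal) and in the shARVCF lines (vertical), with bars of 1 SE from the limma fit and colours by role. The dashed line marks equal changes. NUP153, NUPL1 and POM121 lie far above it, and RAE1 and SEC13 lie below it, all with a called difference of effects. After the correction for length and GC content NUP153, POM121 and RAE1 of these kept that call. NUP85, NUP93 and AAAS also lie below the line, with no called difference at the deposited scaling shown. SEC13 has a called rise in the control line (0.51) that becomes -0.034 after the correction.

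Without drug, no member differed between shARVCF lines and control (0 of 28 at an adjusted p under 0.05 by limma, 0 at an unadjusted p under 0.05), against 0.0201% of all tested genes called. The log2 differences ran from -0.20 (NUP210) to 0.41 (NUPL2). The outermost bounds of the 95% intervals were -0.75 (NUP210) and 1.06 (NUPL2), the members with the largest SE. Intervals of the other members were narrower, from -0.305 to 0.191 for SEC13 and from -0.43 to 0.63 for NUP35. Each interval rests on 1 untreated control library, and differences within it were not resolved. All 3 shARVCF lines lay above the control library for 10 members and below it for 4, against 19% and 20.9% of all tested genes. For NDC1, NUP153 and NUP50 the differences were 0.06, 0.04 and 0.13.

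Under nutlin-3a, 16 members were higher and 4 lower in the shARVCF lines than in the control line (limma, adjusted p under 0.05), against 32.3% of tested genes called higher, 26.1% called lower and 58.4% called in either direction. The median log2 difference was 0.41, against 0.06 over all tested genes, and after the correction for length and GC content 7 members were higher and 6 lower. All 3 shARVCF lines lay above all 3 control libraries for 17 members and below them for 4, against 34.8% and 29.3% of tested genes. The differences of NUP153 (1.61 ± 0.09, adjusted p = 5.59e-08, 3.06-fold), NUP160 (1.38 ± 0.10), NUPL1 (1.37 ± 0.09), NUP205 (1.28 ± 0.10), POM121 (1.27 ± 0.12) and NUP155 (1.24 ± 0.10) were the largest with the deposited scaling. After the correction they were 0.82, 0.62, 0.34, 0.46, 0.93 and 0.21, the last not called, and the largest in size was that of NUP93 (-0.99). The 4 lower members were SEC13 (-0.71 ± 0.08, adjusted p = 1.15e-05), AAAS (-0.52 ± 0.13, adjusted p = 0.00462), RAE1 (-0.48 ± 0.10, adjusted p = 0.00108) and NUP85 (-0.34 ± 0.09, adjusted p = 0.00552). Of these, SEC13 (-0.20) and RAE1 (-0.51) stayed called lower after the correction, while AAAS (0.03) and NUP85 (-0.12) were not called.

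Of the smaller differences, NUP188 (0.23, adjusted p = 0.0313) and NUP54 (0.33, adjusted p = 0.0297) changed call with single libraries left out. NUP188 was not called without control nutlin-3a replicate 1 (adjusted p = 0.0618) or 3 (0.108), or without treated shARVCF line 1 (0.0824) or 2 (0.0775). NUP54 was not called without control nutlin-3a replicate 2 (0.122) or treated shARVCF line 2 (0.0908) or 3 (0.0624), nor with the shARVCF line as a block (0.27, adjusted p = 0.118). NUP43 (0.31, adjusted p = 0.0684) was called with that block (0.44, adjusted p = 0.019) and without control nutlin-3a replicate 1 (0.41, adjusted p = 0.0225).

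The difference of the nutlin-3a effects between the shARVCF lines and the control line was tested directly. It was called for 13 members (5 after the correction for length and GC content), 11 with a smaller fall in the shARVCF lines and 2 (SEC13 and RAE1) with a more negative change there. Over all tested genes 31.8% were called, 19.3% with a more positive and 12.5% with a more negative change in the shARVCF lines. The difference was largest for NUP153 (1.57 ± 0.16, adjusted p = 3.53e-05), NUPL1 (1.41 ± 0.16, adjusted p = 6.26e-05), POM121 (1.33 ± 0.20, adjusted p = 0.000508) and NUP160 (1.31 ± 0.17, adjusted p = 0.000153). All 3 basket members and all 3 tested membrane members were among the 11, but after the correction only NUP153 and POM121 of these kept the call, and NDC1 (-0.035), NUP50 (-0.007) and TPR (-0.26) turned sign. By value alone, 20 of the 28 members fell more in the control line. Over all tested genes 7952 of 14955 had a more positive change in the shARVCF lines.

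Single libraries decided some of these calls. RAE1 (-0.54, adjusted p = 0.0304) was not called without untreated shARVCF line 2 (0.0517) or 3 (0.0551), control nutlin-3a replicate 3 (0.0568) or treated shARVCF line 1 (0.0545). NUP210 (0.99, adjusted p = 0.0289) was not called without untreated shARVCF line 2 (0.0547) or 3 (0.0511), control nutlin-3a replicate 1 (0.0533) or 3 (0.0616), or treated shARVCF line 1 (0.0521) or 2 (0.0573). Conversely NUP107 was called without control nutlin-3a replicate 1 (0.54, adjusted p = 0.0449), NUP214 without replicate 2 (0.63, adjusted p = 0.0307) and NUP133 without replicate 3 (0.55, adjusted p = 0.0293).

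Transcript length and GC content moved with the line differences. The members' spliced lengths, from the longest annotated transcript, ran from 1603 (SEC13) to 9708 bases (TPR) with a median of 5220, against a median of 3350 over 14754 tested genes with an annotation. As a description across genes, which share libraries and are not independent, Spearman's rho between length and the log2 difference under nutlin-3a was 0.66 over the 28 members and 0.58 over all those genes. With GC content it was -0.22 over the members and -0.52 over all those genes. For length and the change in the control line it was -0.54 and -0.43, and for the change in the shARVCF lines -0.03 in both, so the trend with length sat in the control comparison. Of the 14 longer members (5233 to 9708 bases) 13 were higher in the shARVCF lines under nutlin-3a, with a median difference of 0.86. Of the 14 shorter ones (1603 to 5207 bases) 3 were higher and 4 lower, with a median of 0.07.

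With each library's trend with length and GC content removed, the 24 members called lower in the shARVCF lines were the same 24, with a median log2 change of -0.78 against 0.05 over all genes (20.7% called lower, 45.1% in either direction). In the control line 20 of the 24 falls remained called, with a median of -0.84 against 0.10 (21.1% called lower, 28.7% higher, 49.8% in either direction). NUP133 (-0.16), NUP214 (-0.25), NUP93 (-0.25) and TPR (-0.13) were no longer called there. SEH1L was called higher (0.45, adjusted p = 0.00398).

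The line differences changed most. Under nutlin-3a 13 members were called after the removal, 7 higher and 6 lower (15.8% of all genes called higher, 23% lower, 38.9% in either direction). The members' median was -0.05 against -0.06 over all genes. By value 11 of 28 members fell more in the control line, while 6710 of 14754 genes had a more positive change in the shARVCF lines. Called the same way with and without the removal were NUP153, NUP160, NUP205, NUP210, NUPL1 and POM121 (higher) and RAE1 and SEC13 (lower). NUP107 (-0.46) and NUP188 (-0.21) were called lower where they had been called higher, and NUP62 (0.33), NUP93 (-0.99) and SEH1L (-0.50) were called only after it. Signs turned with no call after the removal for AAAS (0.03), NDC1 (-0.02), NUP133 (-0.17), NUP214 (-0.16), TPR (-0.27), NUP43 (-0.25), NUP37 (-0.24) and NUP88 (-0.11). NUP155, among the largest before, had a difference of 0.21 (adjusted p = 0.105). The difference of effects stayed called for NUP153 (0.79, adjusted p = 0.00869), POM121 (0.91, adjusted p = 0.00599), NUP160 (0.58, adjusted p = 0.0322) and RAE1 (-0.55, adjusted p = 0.0332), and NUP93 was called with -1.02 (adjusted p = 0.00404), against 13.5% of all genes called (5.29% with a more positive and 8.23% with a more negative change in the shARVCF lines). With the shARVCF line as a block in the same fit, 8 members were called, NUP210 (0.58), NUPL1 (0.46) and SEH1L (-0.43) in addition. The transcript used for a length may not be the one these cells make, and where the length trend comes from was not tested.

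**Figure D4:**
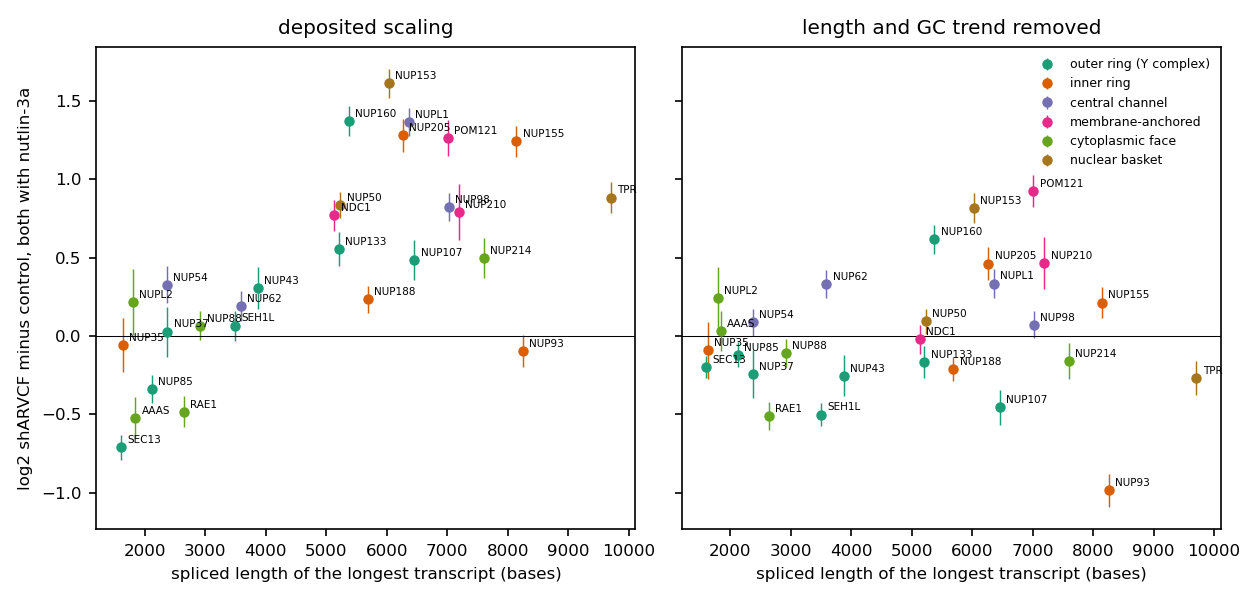
Log2 difference between shARVCF and control lines under nutlin-3a (vertical, bars of 1 SE) against the spliced length of the longest annotated transcript in bases (horizontal), 1 point per tested member, with the deposited scaling (left) and with each library's trend with length and GC content removed (right). On the left the members over 5233 bases lie mostly above 0, with a rho of 0.66, and on the right the rho is 0.11, with NUP153, POM121 and NUP160 among the highest and NUP93, at -0.99, the lowest.

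Among the 3 shARVCF lines, 1 member differed, against 4.34% of all tested genes (limma F test, Benjamini-Hochberg). NUP210 was lower by 0.27 in line 2 and by 0.62 in line 3 than in line 1 on the log2 scale (adjusted p = 0.0312). The order of the lines was the same in untreated and treated libraries. That call was lost without any 1 of the 6 shARVCF libraries, with an adjusted p of 0.21, 0.0628 and 0.118 without untreated lines 1 to 3 and of 0.151, 0.0673 and 0.309 without treated lines 1 to 3. It was also lost with no filter on low values (0.0885). The other 27 members spanned at most 0.32 (AAAS) across lines.

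Control nutlin-3a replicates 2 and 3 carry later sample numbers than the other libraries, and the sources used here do not say whether they were made at another time. With control nutlin-3a replicate 1 alone in that group, each control group was 1 library, so only effect sizes are given. The members' median log2 change in the control line was then -1.30, against -0.08 over all genes of that fit. Between the lines under nutlin-3a the median was 0.29 against 0.04, and for the difference of effects 0.38 against 0.06. The difference between the lines under nutlin-3a went from 0.49 to 0.24 for NUP107 and from -0.52 to -0.43 for AAAS. It went from 0.79 to 0.77 for NUP210, from 0.33 to 0.12 for NUP54 and from 0.23 to 0.27 for NUP188.

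Genes that share the transport pathway were followed in lists of their own, to be read against the 21.7% and 32% of all tested genes called lower in the shARVCF and the control lines and the 21% and 25.1% called higher. Of 6 other pore genes, 2 were lower in the shARVCF lines and 4 in the control line. After the correction for length and GC content 1 was lower and 1 higher in the control line, and the median there went from -0.84 to -0.07. RANBP2, the large protein of the cytoplasmic filaments, was at 4550, 5465 and 5755 in untreated and at 4742, 5492 and 5354 in treated shARVCF lines, and at 5311 and then 1989, 2166 and 2278 in the control line. The treated control libraries stood alone at the low end (-0.01 ± 0.11, adjusted p = 0.942, and -1.31 ± 0.15, adjusted p = 1.37e-05). The change in the control line was -0.07 after the correction for length and GC content. AHCTF1, the protein ELYS that seeds pore assembly on chromatin, fell by 0.50 and 1.35, and by 0.40 and 0.19 after the removal, the last not called (adjusted p = 0.199).

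Transport receptors and the Ran system, which gives transport its direction, were called in part. Of 18 importins and import carriers, 8 were lower and 2 higher in the shARVCF lines, and 12 lower and 2 higher in the control line (medians -0.22 and -0.87). After the correction the control line had 5 lower and 7 higher, with a median of -0.11. KPNA2, an importin alpha, had the largest fall of them in the shARVCF lines (-2.49 ± 0.12, and -2.43 ± 0.17 in the control line). Of 16 exportins and mRNA export genes, 10 were lower in the shARVCF lines, and 7 were lower and 1 higher in the control line, with CSE1L, which returns importin alpha to the cytoplasm, at -1.65 and -2.00. In the control line 8 of 16 called is under the 57.1% of all tested genes, and after the correction 6 were lower and 3 higher. In the Ran cycle 5 of 6 genes fell in the shARVCF lines, and in the control line 3 fell and 1 rose, with RANBP1, a Ran-binding cofactor, at -1.58 and -0.61. After the correction 2 were lower and 0 higher in the control line, so 33.3% were called, against 49.8% of all genes. Of 15 genes of the lamina and inner nuclear membrane, 8 were lower and 4 higher in the shARVCF lines and 9 lower and 4 higher in the control line. Among them LMNB1, a B-type lamin, had changes of -4.10 and -4.82. With the correction 9 of this list were lower and 2 higher in the control line. After removal of the length and GC trend the median difference under nutlin-3a turned from 0.36 to -0.28 for the importins and from 0.11 to -0.27 for the exportins, so no direction between the lines is given for either list.

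Several members overlap other genes on the opposite strand in the annotation, among them NUP107, NUP153, NUP188, NUP214, NUP43, NUP88 and SEC13. Library preparation kept strand, but the sources used here do not give the strand setting of the authors' counting, so reads of such partners cannot be told apart from the members' own. In GENCODE 29 on GRCh38, NDC1 spans chr1:53765460-53838860 on the minus strand with 18 exons and overlaps no other gene. NUP205 (chr7:135557919-135648757, plus strand, 43 exons), NUP50 (chr22:45163841-45188015, plus strand, 8 exons) and NUP160 (chr11:47778087-47848555, minus strand, 36 exons) also overlap none. NUP153 spans chr6:17615035-17706834 on the minus strand with 23 exons, and POM121 spans chr7:72879365-72951440 on the plus strand with 16 exons.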

How the data were processed

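Poly(A) RNA of 10 U2OS libraries was sequenced with a stranded preparation per the labels. Per the submitters' processing notes, bcl2fastq 1.8.3, HISAT2 2.1.0, the hg38 build and Cuffnorm 2.2.1 were used. The sources used here give neither the gene annotation nor the strand setting. Values in the table the authors deposited are a signal: fragments per gene, estimated and multiplied by a scaling factor for each library. The values are not whole counts, so a test on log2 values replaced any count test.

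Members followed the rule on symbols, and all 29 matched GENCODE 29 (24016 symbols of the table matched by name, 757 by an older name, 1267 not at all). Their roles, the related lists and the tests were chosen with earlier results of these data known. The 14955 genes that reached 10 in 3 or more libraries were tested. A model of 4 group means over all 10 libraries, with 6 residual degrees of freedom, was fitted to log2(value + 1) with limma 3.58.1 in R 4.3.3, with an expression trend and robust variances. Fold changes are on that scale, which shrinks those of low genes. P-values are two-sided and adjusted by the Benjamini-Hochberg method over all tested genes of a comparison, and called under 0.05. Differences among shARVCF lines used an F test of 2 line terms (4 residual degrees of freedom). The length and GC correction removed natural splines with 4 degrees of freedom from each library over 14754 genes.

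Any member could be named, as could ARVCF, MDM2 and CDKN1A and up to 4 genes per list with the smallest adjusted p in a comparison. POM121C was named after its values were seen, as the copy of POM121. At most 3 promoters were to be printed, of members with the smallest adjusted p in the shARVCF lines that hold a motif. This was narrowed, after values were seen, to promoters with a motif in bases outside annotated exons.

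Replicate numbers of shARVCF libraries name the same shRNA line. Deviations from group means correlated across genes between same-numbered libraries (r 0.275, 0.288 and 0.327), while r between others was -0.204 to -0.0862. Deviations within a group cancel, so the values between others are not independent of these. The line was therefore a block in an alternative, alone and together with the length and GC correction. Control numbers pair with nothing (r with same-numbered libraries from -0.0224 to 0.0455).

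Alternatives were pseudocounts of 0.1 and 10, no filter, a filter relative to the library total, 4 other scalings and each library left out. Further ones were control nutlin-3a replicates 2 and 3 left out or given a term, the length and GC correction, the line block, and that correction with the block. Tested on simulated data with 200 changed genes of 14955, the nutlin-3a comparison in the shARVCF lines recovered 19.4% of log2 changes of 0.5, 44.8% of 1 and 92.4% of 2. In the control line it recovered 7.46%, 35.8% and 84.8%. The changed genes were drawn from all tested genes and were far fewer than the 6394 called in the shARVCF lines. These shares are therefore not recovery rates for the members.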

Additional observations from a re-analysis of the deposited data

Results flagged for a closer look

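The nutlin-3a effect differed between the shARVCF lines and the control line for 13 members, by limma's test of the difference itself, against 31.8% of all tested genes. The values are the log2 change in the shARVCF lines minus that in the control line, positive where the fall was smaller in the shARVCF lines. Among membrane proteins they were 0.71 for NDC1, 0.99 for NUP210 and 1.33 for POM121. In the scaffold they were 1.31 for NUP160, 1.15 for NUP155, 1.18 for NUP205 and -0.65 for SEC13. In the channel they were 1.41 for NUPL1 and 0.83 for NUP98, and at the cytoplasmic face -0.54 for RAE1. The basket gave 1.57 for NUP153, 0.71 for NUP50 and 0.85 for TPR. Every control value rests on 1 untreated library. Transcript length moved with these differences (Spearman's rho 0.73 over the 28 members, 0.58 over 14754 genes), and its part in them was not tested beyond the trend removal, after which NUP153, NUP160, POM121 and RAE1 kept their calls, and with the shARVCF line as a block in the same fit NUP210 (0.58) and NUPL1 (0.46) kept theirs too.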

How the results depend on the processing

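The count of members called lower with nutlin-3a in the shARVCF lines was 23 to 25 under every alternative run, and the count called in the control line 21 to 26. Leaving out each library gave 23 to 24 and 25 to 26 members, 18 to 20 for the lines under nutlin-3a, 0 without drug, 11 to 14 for the difference of effects and 0 to 1 among shARVCF lines. Without the lone untreated control library the comparisons that need it could not be fitted. With no filter 0 members differed among shARVCF lines. With the line as a replicate block the counts were 24, 25, 20, 0 and 13, and the block changed no call other than those of NUP54 (0.27) and NUP43 (0.44) under nutlin-3a. Other scalings gave 18 (upper quartile and relative log expression) to 22 (library size) members between the lines under nutlin-3a. They moved the all-gene median in the control line from -0.10 to between -0.21 (library size) and 0.07 (upper quartile), against member medians of -1.38 and -1.10. For the difference of effects, upper-quartile scaling called 2493 genes higher and 2540 lower, in place of 2893 and 1863.

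Removal of the length and GC trend left 13 members called between the lines under nutlin-3a and 5 for the difference of effects, and 12 and 8 together with the replicate block. Among members called before or after the removal, signs turned in the control line for SEC13 (-0.034) and SEH1L (0.45), with the same values with the block. Between the lines under nutlin-3a, with the same limit to called members, they turned for AAAS (0.033, with the block 0.13), NUP107 (-0.46, -0.52), NUP133 (-0.17, -0.15), NUP188 (-0.21, -0.20), NUP214 (-0.16, -0.17), SEH1L (-0.50, -0.47) and TPR (-0.27, -0.29), for NDC1 without the block (-0.02) and for NUP98 with it (-0.03). For the difference of effects the called members that turned were NDC1 (-0.035), NUP50 (-0.007) and TPR (-0.26) with and without the block. SEH1L turned in both (-0.43) and was called with the block. Uncalled members turned too, NUP37, NUP43 and NUP88 between the lines and AAAS, NUP107, NUP133, NUP188, NUP214, NUP43 and NUP88 for the difference of effects, with and without the block, as did NUP35 (0.06) between the lines with it. Why these moved was not tested further. The table gives no counts, so sampling depth per gene is unknown.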
